A study of Rattus norvegicus with 6 samples.

Results

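The genes described here are 34 adipogenic transcription factors and stromal progenitor markers, measured in the mesenterial fat of newborn rats of the outbred Sprague-Dawley strain. A probe set was taken as a member when the platform annotation gave it exactly 1 gene symbol and that symbol was on the list. This gave 72 probe sets for 31 of the 34 genes, among 14217 genes named on the array. Ebf3, Sox9 and Cd34 had no such probe set and are not analysed here. Mothers of the deficient group ate a diet without vitamin D, 0 IU per kg (3 arrays), and mothers of the adequate group a diet with 1000 IU per kg (3 arrays). All pups were labelled as wild type. Litter and sex are not labelled, nor is it stated that each array holds another pup. The p-values below therefore cover the spread between these samples, which may be technical. Values are log2 of the deposited MAS5 signal, a linear intensity that condenses the probes of a probe set.

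As background, white fat cells arise from mesenchymal progenitors that carry the platelet-derived growth factor receptors. In cultured preadipocytes the early factors C/EBP beta and C/EBP delta switch on PPAR gamma and C/EBP alpha, which then maintain each other and turn on the genes of lipid storage. Krüppel-like factors (KLFs), zinc finger proteins that bind CACCC sequences, act on both sides of this cascade: Klf5, Klf6 and Klf15 promote it, and Klf2, Klf3 and Klf7 restrain it. The mesentery of a newborn rat is a mixed tissue, so whole-tissue RNA also holds transcripts of vessels, smooth muscle, mesothelium and immune cells. In such bulk samples, fewer cells of a type and less RNA per cell cannot be told apart.

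The label was checked against markers of fat cells and progenitors. Of 20 adipocyte genes, 13 passed the filter on dim signals, a mean log2 signal of at least 6.46 over all 6 arrays. Fabp4, the fatty acid binding protein of fat cells, read 11.01, 10.63 and 11.46 on the deficient arrays and 10.98, 11.26 and 11.21 on the adequate arrays. Adipoq, Plin1, Cidec, Lep, Gpd1 and Aqp7, genes of the lipid-filled adipocyte, stayed below the filter, and Retn had no probe set named here. Pdgfra, the receptor that marks the progenitors, was the brightest member, at the 97.4th percentile of all probe sets. The other progenitor surface markers were dimmer. Dpp4, Pdgfrb and Thy1 lay at percentiles 77.9, 77.0 and 76.9 at their brightest probe sets, and Pi16 only at 45.5. On technical measures, deficient arrays 1 and 2 were unlike the remaining 4. Their bacterial hybridisation controls read 7.19 and 10.1 times the adequate mean, and those of deficient array 3 read 0.960 times that mean. The signal of the 3' end of beta-actin over its 5' end, which rises with RNA degradation or short labelling products, was 7.56, 6.80 and 2.35 on deficient arrays 1, 2 and 3, and 2.39, 4.81 and 2.58 on the adequate arrays. The part of these technical values in any result below was not tested. The signals of all tested probe sets split the arrays in the same way. Their first principal component, the axis along which the arrays differ most, held 49.5% of the variance. Deficient arrays 1, 2 and 3 lay at 43.1, 46.4 and -20.3 on it, and the adequate arrays at -24.5, -18.5 and -26.2.

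The brightest probe sets of the members covered most of the signal range. Of the 31 genes, 25 had a probe set above the filter. Pparg, Ebf2, Gata3, Twist1, Twist2 and Foxc2 did not. After Pdgfra came Klf2, Klf6, Ebf1, Klf3, Klf5, Meox2 and Cebpb, at percentiles between 95.6 and 85.8. The dimmest tested member was Stat5b, a signal transducer of growth hormone and prolactin, at the 41.6th percentile. Probe sets differ in how well they bind, so this order describes brightness and not the amount of each transcript.

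**Figure D1:**
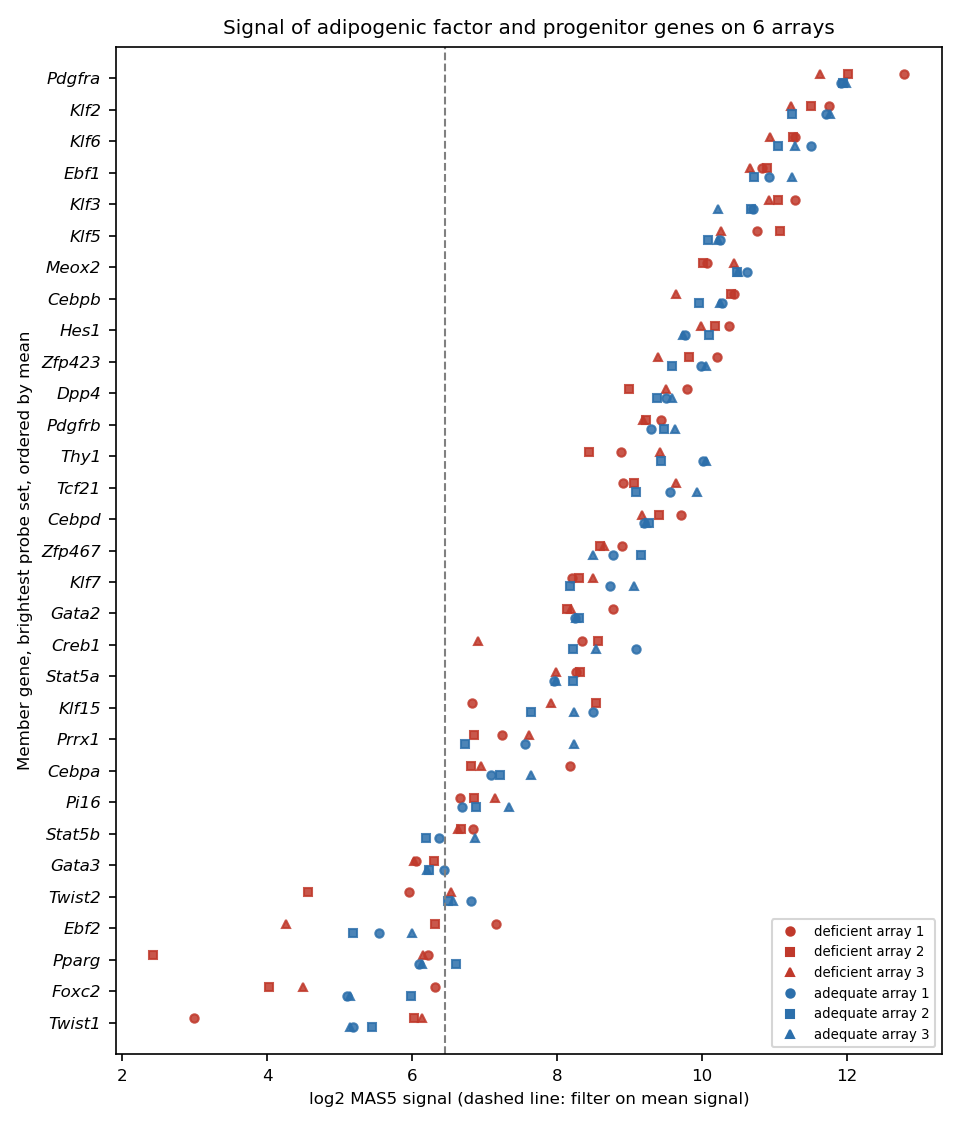
Log2 MAS5 signal (x axis) of the brightest probe set of each of the 31 member genes (rows, ordered by mean), with a point for each deficient array (red) and each adequate array (blue). The dashed line is the filter at 6.46, and 6 genes lie below it on average, among them Pparg with deficient array 2 at 2.43.

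No member differed between the maternal diets past the adjusted threshold. By limma with Benjamini-Hochberg adjustment, 0 of the 44 tested member probe sets and 0 of all 18625 tested probe sets (0%) had an adjusted p under 0.05. At an unadjusted p under 0.05, 6 member probe sets, 13.6%, stood against 14.2% of all tested. Of these, 4 were higher in the deficient group (9.09%, against 6.03% of all tested) and 2 were lower (4.55%, against 8.18%). They belong to Klf5, Klf3, Klf7, Klf2 and Thy1. The groups did not overlap for 6 member probe sets, 13.6%, against 17.4% of all tested. Of those, 4 were higher (against 6.55%) and 2 lower (against 10.8%). With the brightest tested probe set standing for each gene, 9 of 25 members had higher and 16 lower values in the deficient group, with a median log2 difference of -0.08. Over all 10591 tested named genes, 4148 were higher and 6443 lower, with a median of -0.09. Both the shares and the median of the members thus lay near the background.

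**Figure D2:**
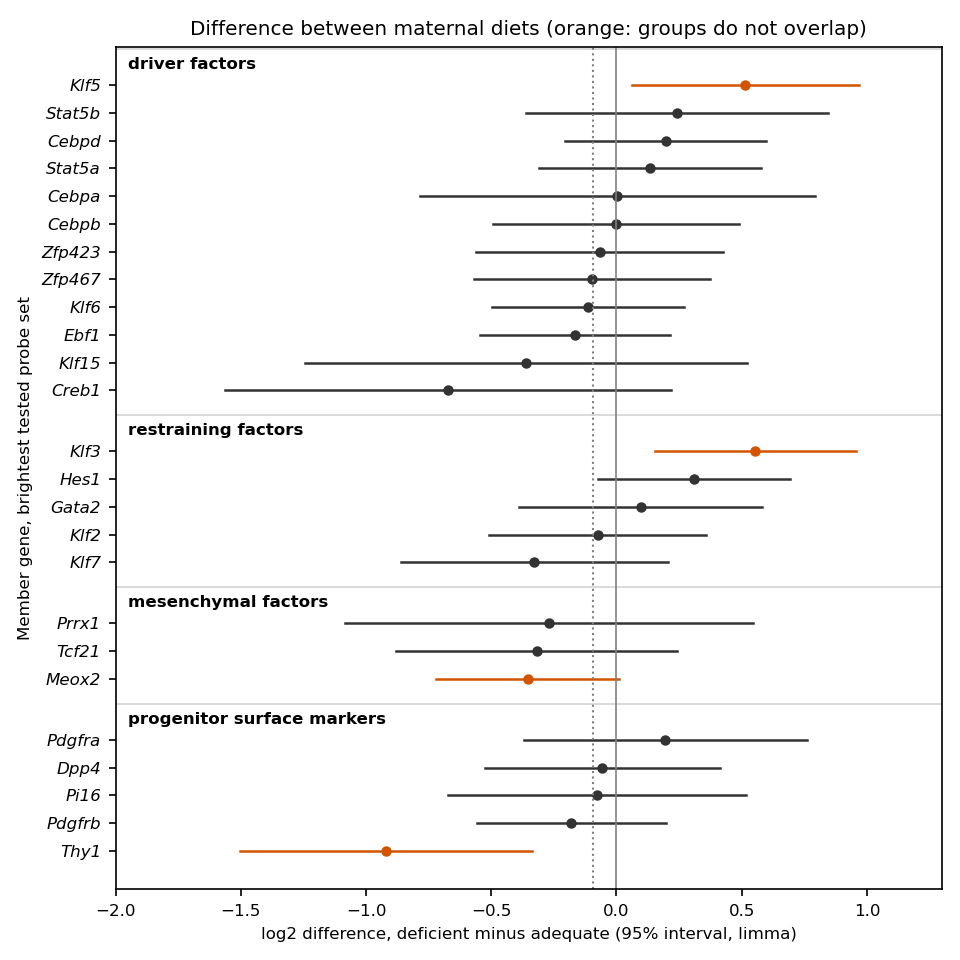
Log2 difference, deficient minus adequate (x axis), of the brightest tested probe set of 25 member genes by role, with 95% intervals from limma; the dotted line is the median over all tested named genes, -0.09. Klf5 and Klf3 (higher) and Meox2 and Thy1 (lower) are drawn in orange because their groups do not overlap.

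In 4 genes the brightest tested probe set separated the groups: Klf5 and Klf3 were higher on every deficient array, and Meox2 and Thy1 lower. The promoters of Klf3, Klf5 and Meox2 are shown because their brightest tested probe sets separated the groups. No promoter window of Thy1 was in the sources used here. CACCC is marked because KLFs bind this sequence. The windows run from 250 bases before to 50 bases after the start of the gene and come from RefSeq on GRCr8, a build used here for these windows only. Klf3 lies at chr14:43850777-43851076 on the minus strand, Klf5 at chr15:82471831-82472130 on the plus strand, and Meox2 at chr6:59583775-59584074 on the plus strand. Each is written 5′ to 3′ on the strand of the gene, and capitals mark CACCC or its reverse complement GGGTG.
Klf3: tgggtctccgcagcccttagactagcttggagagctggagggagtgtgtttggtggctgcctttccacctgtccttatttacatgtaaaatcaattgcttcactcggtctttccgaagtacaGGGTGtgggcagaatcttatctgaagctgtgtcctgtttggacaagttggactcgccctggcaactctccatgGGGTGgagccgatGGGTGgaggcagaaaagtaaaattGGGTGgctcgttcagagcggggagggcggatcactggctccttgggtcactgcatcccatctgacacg
Klf5: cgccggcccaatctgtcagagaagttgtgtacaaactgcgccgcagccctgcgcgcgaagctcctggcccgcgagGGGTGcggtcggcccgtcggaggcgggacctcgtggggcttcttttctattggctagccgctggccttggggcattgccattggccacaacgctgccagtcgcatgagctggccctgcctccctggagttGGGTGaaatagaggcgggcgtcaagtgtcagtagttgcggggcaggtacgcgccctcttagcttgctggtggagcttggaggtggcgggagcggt
Meox2: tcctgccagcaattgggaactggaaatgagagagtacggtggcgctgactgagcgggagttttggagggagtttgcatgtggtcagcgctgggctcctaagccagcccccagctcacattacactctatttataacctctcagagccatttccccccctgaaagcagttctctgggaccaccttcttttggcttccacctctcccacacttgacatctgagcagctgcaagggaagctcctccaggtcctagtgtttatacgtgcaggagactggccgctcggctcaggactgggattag

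The Klf3 window held 4 CACCC matches on either strand, the Klf5 window 2 and the Meox2 window 0. Of all 33469 promoter windows of this length, 54.9% held at least 1 match and 3.07% held 4 or more. Of 28 such windows of member genes, 21 held at least 1 match. One of the Klf3 matches overlaps a match to CCAAT, the box named after these letters. CCAAT, on either strand, occurred 1 time in the Klf3, 3 times in the Klf5 and 1 time in the Meox2 window, and 37.5% of all windows held it. The letters AGGTCA and AGTTCA, letters bound by nuclear receptors that include the vitamin D receptor, were not in these 3 windows on either strand. They occurred in 16.2% and 14.5% of all windows. TTGCNNAA, a C/EBP-type sequence, was also not in them and occurred in 10.6%. Matches are letters in a window and were not tested as binding sites.

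Klf5 and Klf3 act on opposite sides of adipogenesis, and both had higher values in the deficient group. Klf5, which is induced by the early C/EBP factors and acts on the Pparg promoter in mouse cells, read 10.77, 11.08 and 10.27 on deficient arrays 1, 2 and 3 and 10.25, 10.09 and 10.22 on the adequate arrays. Deficient array 3 lay only just above the highest adequate array, and arrays 1 and 2 carried most of the difference. The log2 difference was 0.52 ± 0.20 (SE), a fold of 1.43, with a limma adjusted p of 0.344. The dimmest tested probe set of Klf5 read 8.16, 8.51 and 6.73 on the deficient arrays and 7.01, 5.87 and 7.26 on the adequate arrays, and deficient array 3 lay among the adequate values. Its log2 difference was 1.08 ± 0.48 (SE, limma adjusted p 0.350). The remaining tested probe set of Klf5 had a log2 difference of 0.07 ± 0.32 (SE).

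Klf3, a repressor that binds the Cebpa promoter in mouse cells, showed a difference on all 3 deficient arrays. It read 11.29, 11.06 and 10.93 on the deficient arrays and 10.71, 10.68 and 10.22 on the adequate arrays. The log2 difference was 0.55 ± 0.18 (SE), a fold of 1.47, with a limma adjusted p of 0.344. On deficient array 3 alone the value lay 0.39 above the adequate mean. Both other tested probe sets of Klf3 had higher means in the deficient group, by 0.10 ± 0.17 and 0.25 ± 0.17 (SE) on the log2 scale, and overlapped between the groups. The probe sets of Klf3 thus shared their sign but not their size.

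The probe sets of Klf2 and Klf7, both restraining factors, went in opposite directions within each gene. The brightest Klf2 probe set, at 11.50 ± 0.27 in the deficient and 11.57 ± 0.28 in the adequate group (SD, n = 3 each), had a log2 difference of -0.08 ± 0.20 (SE). The second brightest probe set of Klf2 read 8.04, 8.20 and 8.97 on the deficient arrays and 9.61, 8.92 and 9.68 on the adequate arrays, so that deficient array 3 reached just above adequate array 2. Its log2 difference was -0.998 ± 0.28 (SE), a fold of 0.501, with a limma adjusted p of 0.344. The third tested probe set of Klf2 was higher on every deficient array, by 0.27 ± 0.21 (SE). A dimmer one, below the filter, was lower on every deficient array, at 6.20 ± 0.18 in the deficient and 6.60 ± 0.24 in the adequate group (SD, n = 3 each). Klf2 can therefore be given no single direction. Klf7 had a log2 difference of -0.33 ± 0.24 (SE) at its brightest probe set and 0.89 ± 0.36 (SE, limma adjusted p 0.344) at the dimmer tested one. That dimmer probe set read 8.31, 7.69 and 6.84 on the deficient arrays and 6.79, 6.37 and 7.005 on the adequate arrays, with deficient array 3 inside the adequate range.

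**Figure D3:**
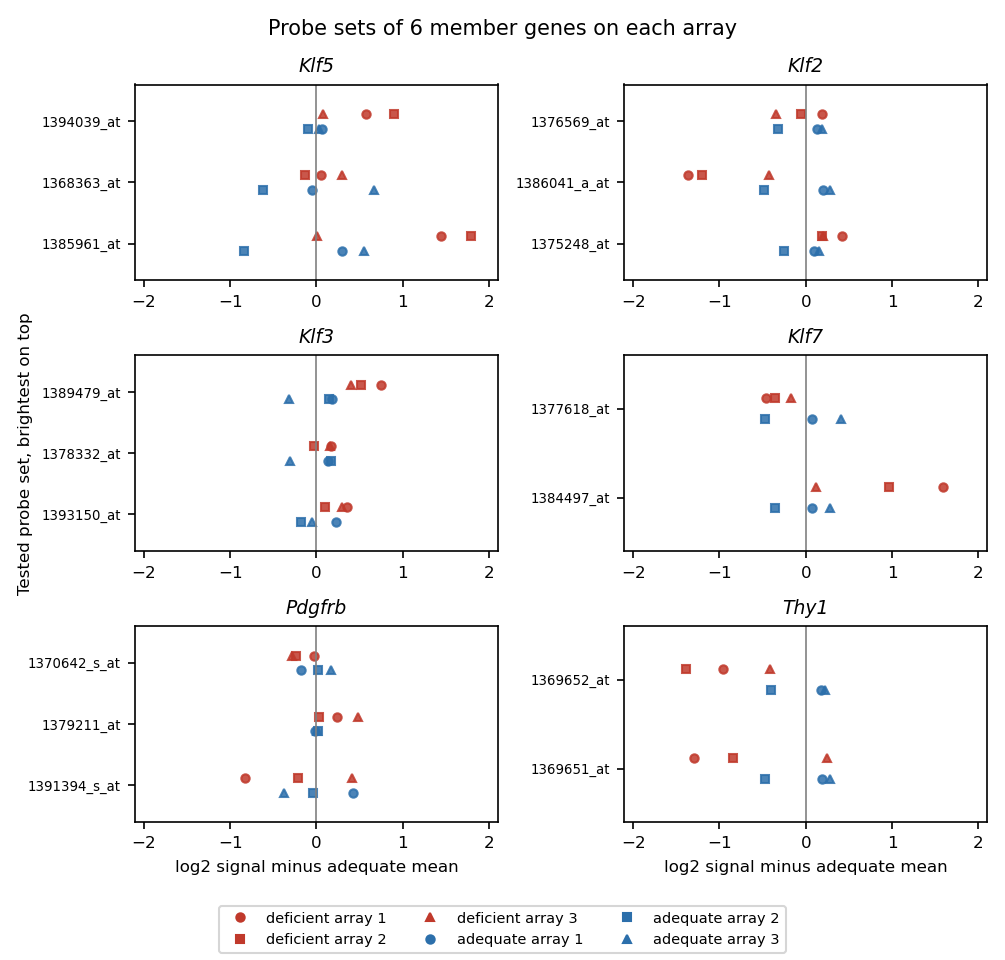
Log2 signal minus the adequate mean (x axis) of every tested probe set (rows) of Klf5, Klf2, Klf3, Klf7, Pdgfrb and Thy1, with deficient arrays in red and adequate arrays in blue. The probe sets of Klf2, Klf7 and Pdgfrb differ in sign within the gene, and deficient arrays 1 and 2 (circle and square) lie farthest out for the dimmest of Klf5, the second of Klf2 and the second of Klf7.

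Such disagreement was common among the members. Of the 12 genes with at least 2 tested probe sets, 4 had the same sign at all of them (Klf5, Klf3, Dpp4 and Thy1) and 8 did not (Cebpa, Cebpd, Klf6, Ebf1, Zfp423, Klf2, Klf7 and Pdgfrb). Where a probe set lies along its transcript is not given in the sources used here, so the part of the actin end ratio in the disagreement was not tested.

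The central factors of adipogenesis showed no difference that held up against the spread between arrays. Cebpb read 10.44, 10.40 and 9.65 on the deficient arrays and 10.28, 9.97 and 10.25 on the adequate arrays, with means of 10.16 and 10.17. Its 95% interval for the log2 difference ran from -0.50 to 0.49. Deficient arrays 1 and 2 lay above and deficient array 3 below all adequate arrays. Cebpd read 9.71, 9.41 and 9.17 on the deficient arrays and 9.20, 9.28 and 9.23 on the adequate arrays, with the same order of the deficient arrays around the adequate range. Its log2 difference was 0.20 ± 0.18 (SE), with an interval from -0.20 to 0.60. Cebpa read 8.18, 6.82 and 6.96 on the deficient arrays and 7.09, 7.22 and 7.64 on the adequate arrays at its brightest probe set, so that deficient array 1 lay above and deficient arrays 2 and 3 below all adequate arrays. The interval ran from -0.79 to 0.79. At the other tested probe sets of Cebpa the log2 difference was -0.11 ± 0.27 and -0.58 ± 0.30 (SE). Pparg, below the filter and not tested, read 6.23, 2.43 and 6.15 on the deficient arrays and 6.10, 6.60 and 6.14 on the adequate arrays. Without the low value of deficient array 2, the groups of Pparg lay within the same range.

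The other promoters of adipogenesis had small or variable differences. Klf6, which represses the preadipocyte gene Dlk1, differed by -0.11 ± 0.17 (SE, log2) at the brightest of 3 probe sets. Ebf1, an early B cell factor that also acts in fat, differed by -0.16 ± 0.17, and Zfp423, a zinc finger protein of committed preadipocytes, by -0.07 ± 0.22. Zfp467 differed by -0.10 ± 0.21, Stat5a by 0.13 ± 0.20 and Stat5b by 0.24 ± 0.27. Klf15, a factor that rises late in fat cell differentiation, differed by -0.36 ± 0.40, and its deficient arrays spread from 6.83 to 8.55. Creb1, which turns on Cebpb when cyclic AMP rises, differed by -0.67 ± 0.40, and its value of 6.92 on deficient array 3 lay below all others. All of these had a limma adjusted p between 0.425 and 0.894. Ebf2, a factor of brown fat progenitors, was not tested and read 7.16, 6.32 and 4.27 on the deficient arrays and 5.55, 5.19 and 5.99 on the adequate arrays. As a group, the 12 tested drivers had 5 higher and 7 lower values and a median log2 difference of -0.04.

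Of the restraining factors, Hes1, a target of Notch signalling, had higher values on deficient arrays 1 and 2 than on any adequate array. It read 10.37, 10.19 and 9.98 on the deficient arrays and 9.77, 10.09 and 9.74 on the adequate arrays, a log2 difference of 0.31 ± 0.17 (SE, limma adjusted p 0.400). Gata2, which holds preadipocytes undifferentiated in mouse cells, differed by 0.10 ± 0.22. Gata3 was below the filter, at 6.13 ± 0.15 in the deficient and 6.29 ± 0.13 in the adequate group (SD, n = 3 each). The 5 tested restraining factors had 3 higher and 2 lower values and a median of 0.10.

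The 3 tested mesenchymal factors had lower means in the deficient group, and none passed the adjusted threshold. On deficient array 3 alone, Tcf21 lay 0.11 and Prrx1 0.10 above the adequate mean. Meox2, a homeobox factor of mesenchyme that is also expressed in vessels, read 10.07, 10.02 and 10.45 on the deficient arrays and 10.62, 10.49 and 10.50 on the adequate arrays. Deficient array 3 lay just below the lowest adequate array. The log2 difference was -0.36 ± 0.16 (SE), a fold of 0.782, with a limma adjusted p of 0.354. Tcf21, a factor of visceral fat progenitors, read 8.92, 9.07 and 9.64 on the deficient arrays and 9.56, 9.09 and 9.93 on the adequate arrays, a log2 difference of -0.32 ± 0.25 (SE). Prrx1, a factor of limb and trunk mesenchyme, differed by -0.27 ± 0.37. The median of these 3 was -0.32, against -0.09 over all tested named genes. Twist2 was below the filter and read 5.95, 4.56 and 6.54 on the deficient arrays and 6.81, 6.50 and 6.57 on the adequate arrays. The brightest probe sets of Twist1 and Foxc2 were dimmer still, with means of 5.05 and 4.95 in the deficient and 5.26 and 5.41 in the adequate group. A dimmer probe set of Twist1 averaged 3.49 in the deficient and 2.05 in the adequate group, and one of Foxc2 averaged 2.18 in the deficient and 1.86 in the adequate group, both higher in the deficient group. The remaining probe set of Foxc2 was lower, at 1.90 in the deficient and 2.87 in the adequate group. All of these lay far below the filter and were not tested.

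Thy1 had the lowest difference among the brightest probe sets of the members. This glycoprotein sits on stromal progenitors and, in the rat, also on immature lymphocytes and neurons. It read 8.88, 8.44 and 9.42 on the deficient arrays and 10.01, 9.44 and 10.05 on the adequate arrays, and deficient array 3 lay just below adequate array 2. The log2 difference was -0.92 ± 0.26 (SE), a fold of 0.528, with a limma adjusted p of 0.344. On deficient array 3 alone the value lay 0.42 below the adequate mean. The other probe set of Thy1 read 6.90, 7.35 and 8.44 on the deficient arrays and 8.39, 7.73 and 8.47 on the adequate arrays, where deficient array 3 lay inside the adequate range. Its log2 difference was -0.63 ± 0.37 (SE).

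Lymphocyte markers, like Thy1, had lower values in the deficient group. These were all 5 tested of the 8 listed markers, or 4 of 4 without Cd3e, which passed the filter only through the adequate group (mean 5.81 in the deficient and 7.57 in the adequate group). Among them were Cd247, a chain of the T cell receptor complex, at -0.94 ± 0.34 and Cd74, the invariant chain of antigen presentation, at -0.60 ± 0.22 (SE, log2). Their summed signal ranged from 2139 to 3717 intensity units on the deficient arrays and from 3042 to 5186 on the adequate arrays. That sum is weighted to Cd74, the brightest of them, with a mean log2 signal of 11.24 against 8.72 for Cd3g, the next brightest. Set against their adequate mean, the median of these markers was -1.10, -1.43 and -0.19 on the deficient arrays and 0.29, -0.59 and 0.37 on the adequate arrays. The B cell marker Cd79b was below the filter, and Cd79a had no probe set named here. The part of lymphocytes in the Thy1 difference was not tested.

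The other progenitor surface markers had smaller differences, and their difference from Thy1 was not tested. Pdgfra read 12.80, 12.02 and 11.63 on the deficient arrays and 11.92, 11.95 and 11.99 on the adequate arrays. The 3 adequate values lay within 0.1 of each other, and the deficient values lay on both sides of them. The log2 difference was 0.20 ± 0.26 (SE), with a 95% interval from -0.37 to 0.76. Pdgfrb, the receptor of mural cells and progenitors, read 9.44, 9.23 and 9.19 on the deficient arrays and 9.29, 9.48 and 9.63 on the adequate arrays at its brightest probe set, a log2 difference of -0.18 ± 0.17 (SE). A dimmer probe set of Pdgfrb was higher on every deficient array, with a log2 difference of 0.25 ± 0.20, and the remaining one had -0.21 ± 0.34. Dpp4, a peptidase on early interstitial progenitors, differed by -0.06 ± 0.21 and Pi16, another marker of those cells, by -0.08 ± 0.27. The 5 tested surface markers had 1 higher and 4 lower values and a median of -0.08.

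Values of vessel markers are given here because Klf2 and Meox2 are expressed in vessels as well as in stroma. Of 7 tested endothelial markers out of 8 listed, 5 had lower and 2 higher values in the deficient group, with a median of -0.42. The 2 higher were Pecam1 at 0.16 ± 0.22 and Tek at 0.0047 ± 0.14 (SE, log2). Tie1, an endothelial receptor, had a log2 difference of -0.74 ± 0.20 and Emcn, an endothelial sialomucin, -0.56 ± 0.22 (SE), and Cdh5 had no probe set named here. Their summed signal ranged from 9770 to 11257 intensity units on the deficient arrays and from 11964 to 12495 on the adequate arrays. Smooth muscle and pericyte markers had 5 of 10 higher and 5 lower, with a median of -0.03 and summed signals from 62476 to 82679 on the deficient arrays and from 49700 to 61020 on the adequate arrays. That sum is weighted to the brightest markers. Myh11, the smooth muscle myosin, differed by 0.69 ± 0.24 and Tagln, an actin-binding protein of the same cells, by 0.62 ± 0.24. Rgs5 and Kcnj8, pericyte markers named after their values were seen, differed by -0.55 ± 0.28 and -0.32 ± 0.21, and the smooth muscle actin Acta2 by 0.0044 ± 0.20. Cnn1 differed by 0.33 ± 0.16 and Notch3 by 0.17 ± 0.27. The remaining markers were Mcam at -0.10 ± 0.21, Cspg4 at -0.06 ± 0.21 and Des at -0.30 ± 0.20. The part of vessel cells in the values of Klf2, Meox2 and Pdgfrb was not tested.

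The difference between deficient arrays 1 and 2 and deficient array 3 ran through the members. On deficient arrays 1 and 2, 12 of the 44 member probe sets (27.3%) lay above all adequate arrays and 6 (13.6%) below, against 21.6% and 30.2% of all tested probe sets. On deficient array 3, 5 (11.4%) lay above all adequate arrays and 15 (34.1%) below, against 26.2% and 28.2% of all tested. The driver factors had a median, set against their adequate mean, of 0.24, 0.08 and -0.25 on deficient arrays 1, 2 and 3, and 0.02, -0.21 and 0.06 on the adequate arrays. Creb1 and Pdgfra were among the members below the adequate range on deficient array 3, as were Cebpb, Cebpd and Zfp423 at their brightest probe sets. Leaving out deficient array 3 changed the calls: 3614 of all tested probe sets (19.4%) then passed the adjusted threshold by limma, and 8 of the 44 member probe sets (18.2%), a share near that background. In that fit Klf5 (0.73, adjusted p 0.00860), its dimmest tested probe set (1.62, 0.0199), Klf3 (0.63, 0.0298) and the dimmer Klf7 probe set (1.28, 0.0171) passed as higher. Thy1 (-1.17, 0.00812), its dimmer probe set (-1.07, 0.0272), the second brightest Klf2 probe set (-1.28, 0.00725) and Meox2 (-0.49, 0.0266) passed as lower. Both deficient arrays of that fit had higher hybridisation controls and actin end ratios than every adequate array. Diet and these technical measures cannot be told apart there. Deficient array 3 alone against the adequate arrays is an arm of 1 array, whose spread is assumed to be that of the adequate arrays, so passing the adjusted threshold was hardly possible. At an unadjusted p under 0.05 the members' counts were 3 for that array alone (6.82%, against 6.52% of all tested) and 11 without it (25%, against 35.3%). With array weights 10 member probe sets had such a p (22.7%, against 35.9%) and 8 passed the adjusted threshold (18.2%, against 18.6%). On deficient array 3 alone the differences were 0.08 for Klf5, 0.01 for its dimmest probe set, 0.39 for Klf3, 0.12 for the Klf7 probe set, -0.42 for Thy1, 0.24 for its dimmer probe set, -0.43 for the Klf2 probe set and -0.09 for Meox2. Klf3, Thy1 and the Klf2 probe set thus had the largest differences on deficient array 3 among these 8. The 8 were picked by their difference from the same adequate arrays, so these values are not a separate check.

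Other genes of the same programme gave a background for the members. Of 28 other regulators of adipogenesis, 22 were tested, with 13 higher and 9 lower values, a median of 0.09, and 3 higher and 0 lower at an unadjusted p under 0.05. These were Tcf7l1, a Wnt pathway repressor, at 1.01 ± 0.26, Nfia, a factor of brown fat, at 0.71 ± 0.23, and Ctnnb1, the beta-catenin gene, at 0.74 ± 0.32 (SE, log2). Ctnnb1 read 14.67, 14.86 and 13.46 on the deficient arrays and 13.47, 13.71 and 13.59 on the adequate arrays, so that its difference lay in deficient arrays 1 and 2. Tcf7l1 read 10.56, 10.67 and 9.68 on the deficient arrays and 9.58, 9.11 and 9.18 on the adequate arrays. Nfia read 12.88, 12.69 and 11.92 against 11.78, 11.81 and 11.77. For both, deficient array 3 lay just above the highest adequate array, and deficient arrays 1 and 2 carried most of the difference. Of all tested named genes, 4.75% were higher and 10.1% lower at an unadjusted p under 0.05. Of 18 other progenitor and fibroblast markers, 16 were tested, with 8 higher and 8 lower, a median of 0.04, and 2 higher and 0 lower at an unadjusted p under 0.05. F3, a surface marker of a progenitor subset, read 9.75, 10.23 and 10.29 on the deficient arrays and 9.42, 9.64 and 9.21 on the adequate arrays, a log2 difference of 0.67 ± 0.20 (SE). It was high on deficient array 3 as well. The collagen gene Col3a1 differed by 0.81 ± 0.34 and the proteoglycan Lum by 0.78 ± 0.36, both with deficient array 3 inside the adequate range. Of the 13 tested adipocyte genes, 5 were higher and 8 lower, with a median of -0.12 and 0 at an unadjusted p under 0.05 in either direction. One of the higher genes, Scd, passed the filter only through the deficient group (mean 6.69 in the deficient and 6.42 in the adequate group). Without it, 4 of 12 were higher and 8 lower, with a median of -0.14. Dgat2, which makes triglyceride, had -0.44 ± 0.21, Cfd, the adipsin gene, -0.50 ± 0.24 and Slc2a4, the insulin-responsive glucose transporter, -0.57 ± 0.34. None of the genes in these 3 lists had a limma adjusted p under 0.05 with all 6 arrays.

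**Figure D4:**
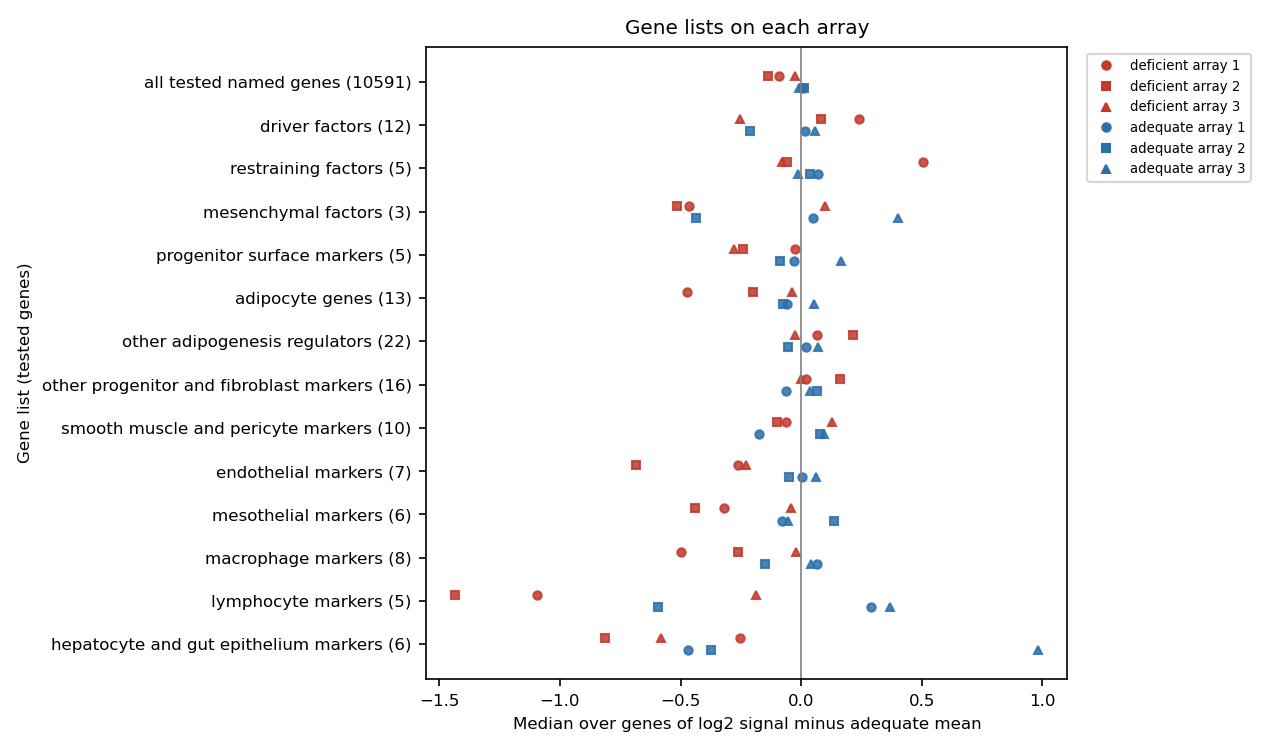
Median over the tested genes of each list (rows, number tested in brackets) of log2 signal minus the adequate mean (x axis), with a point for each deficient array (red) and each adequate array (blue). The driver factors lie at 0.24, 0.08 and -0.25 on the deficient arrays, and the lymphocyte markers are lowest on deficient arrays 1 and 2, at -1.10 and -1.43.

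Markers of the remaining cell types of the mesentery were measured for the same reason. Mesothelial markers had 5 of 6 tested lower, with Krt18 at -0.58 ± 0.28 and Krt8 at -0.36 ± 0.20 (SE, log2). Lrrn4 was higher, at 0.19 ± 0.21. Set against their adequate mean, the median of the mesothelial markers was -0.32, -0.44 and -0.04 on deficient arrays 1, 2 and 3. On the adequate arrays it was -0.08, 0.14 and -0.06. Macrophage markers had 6 of 8 lower, with Tyrobp at -1.11 ± 0.39 and C1qa at -0.34 ± 0.17. The 2 higher were Adgre1 at 0.18 ± 0.25 and Cd163 at 0.10 ± 0.22. The median of the macrophage markers was -0.50, -0.26 and -0.02 on deficient arrays 1, 2 and 3, and 0.06, -0.15 and 0.04 on the adequate arrays. In both lists the lower values thus lay mainly in deficient arrays 1 and 2. Hepatocyte and gut epithelium markers had 6 of 6 tested lower, with Anpep at -0.53 ± 0.22 and Apoa1 at -0.93 ± 0.53. Apoa1 passed the filter only through the adequate group, with means of 6.09 in the deficient and 7.03 in the adequate group, and 5 of 5 were lower without it. On that list, adequate array 3 was the highest. Beside these counts, 6443 of all 10591 tested named genes were lower. The part of these cell types in the members' values was not tested.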

How the data were processed

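Total RNA was labelled with biotin and hybridised to Affymetrix rat expression arrays. The deposited values are linear intensity signals made by the authors with MAS5 and Affymetrix Expression Console, per the submitters' processing notes; the sources used here do not give background settings or detection calls. The 2% trimmed mean lay between 500.1 and 500.2 on each array, so differences in total RNA are scaled away. Depth has no meaning for arrays, and the number of arrays limits precision. No array was a copy of another.

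From 31099 probe sets, 57 controls were removed and the remaining signals were put on a log2 scale, nothing added. Probe sets with a mean under the 40th percentile (log2 6.46) were not tested, which left 18625. Groups came from the sample titles. Deficient minus adequate was fitted with limma 3.58.1 in R 4.3.3 (lmFit and eBayes, trend on), as a two-sided test. Benjamini-Hochberg adjustment ran over all tested probe sets, with a threshold of 0.05. The fit was tested on simulated data. The platform annotation named no gene for 9780 probe sets, more than 1 for 436 and exactly 1 for 20826, and all 31 member symbols found were unchanged in RefSeq. The brightest tested probe set stood for a gene. Members and lists were chosen with earlier results of these data known. Values per array were given for Pparg, Cebpa, Cebpb, Cebpd, Pdgfra, Pdgfrb and members with an unadjusted p under 0.05 or no overlap between groups. Up to 3 genes of each comparison list and 2 of each cell type list were named by smallest p. Other members whose arrays are listed, Fabp4 and further genes of the lists were chosen after their values were seen.

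Alternatives were array weights, a block for the replicate number, deficient array 3 alone, each array left out in turn, an offset of 50, the filter set at the 60th percentile or dropped, the trend switched off, centring on the median, quantile normalization, and averaging the tested probe sets of each gene. Deviations from the group means correlated at 0.11, 0.15 and 0.01 between arrays of the same replicate number. Between arrays of different numbers the correlations ran from -0.14 to 0.05. Values this small do not settle whether the replicate numbers pair the arrays. Figures were drawn with matplotlib 3.10.9.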

Additional observations from a re-analysis of the deposited data

How the results depend on the processing

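With array weights, 3462 probe sets (18.6%) passed the adjusted threshold, against 0, and 10 member probe sets had an unadjusted p under 0.05, against 6. Of the 44 member probe sets, 8 (18.2%) then passed, the same 8 as without deficient array 3, among them Klf5 at 0.67 and Thy1 at -1.21. Array weights are estimated from these same arrays, so this overlap is not independent support for the 8. With deficient array 3 alone, 3 member probe sets had an unadjusted p under 0.05 and 20 had no overlap, where 1 array is set against 3. Leaving out each array in turn gave 0 to 3614 probe sets past the adjusted threshold, 3 (without deficient array 1) to 11 (without deficient array 3) member probe sets at an unadjusted p under 0.05, 7 to 18 without overlap (fewer arrays overlap less), and a median over members from -0.18 to 0.02. With the replicate block 0 probe sets passed the adjusted threshold, and 5 of the 6 member probe sets kept an unadjusted p under 0.05. The dimmest tested probe set of Klf5 lost it. Every member result whose sign turned had an adjusted p over 0.05. With deficient array 3 alone the log2 difference was -0.36 for Cebpa, -0.063 for Cebpd, 0.021 for Dpp4, -0.079 for Gata2, -0.33 for Pdgfra, 0.18 for Pi16, 0.10 for Prrx1, -0.069 for Stat5a and 0.11 for Tcf21. With the tested probe sets of each gene averaged it was -0.23 for Cebpa, 0.12 for Klf6 and 0.28 for Klf7. For Cebpb it was 0.044 after quantile normalization, 0.0088 after median centring and 0.13 with array weights, and for Dpp4 0.028 after quantile normalization. When single arrays were left out, signs turned within these ranges: Cebpa -0.43 to 0.25, Cebpb -0.14 to 0.26, Dpp4 -0.24 to 0.16, Gata2 -0.11 to 0.21, Klf15 -0.75 to 0.11, Klf2 -0.24 to 0.062, Pdgfra -0.13 to 0.46, Pi16 -0.22 to 0.11, Prrx1 -0.66 to 0.095, Zfp423 -0.27 to 0.14 and Zfp467 -0.26 to 0.079. The cause of these changes was not tested. The offset turned no member's sign. The filters and the trend setting do not enter the log2 difference of a probe set, so they could not turn a sign.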
